A study of Rattus norvegicus with 20 samples.

Results

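Complement and coagulation factors are the plasma protein cascades of immune defence and blood clotting, and 34 of 40 listed genes of these cascades were measured among the 14217 genes of rat liver named here. The genes were taken from a list of current rat symbols drawn up with earlier results of these data known, by a rule that uses no difference between diets, and each gene is represented by the probe set with the highest mean signal over all 20 arrays. The 40 genes are 10 that start the lectin and classical pathways of complement or restrain that start, 4 of the C3 and alternative pathway, 7 of the terminal pathway, 4 of the contact system of clotting, 6 vitamin K dependent clotting factors or anticoagulants, 5 cofactors, fibrinogen chains and cross-linking factors, and 4 serpins and fibrinolysis proteins. C2, Cfb, Kng1, F7, F11 and F13b had no probe set with a single gene symbol and were not analysed here. Cfb and C2 share probe sets annotated to both genes.

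Most of these proteins are made by hepatocytes and secreted into the blood as inactive precursors. Complement is started by antibody (classical pathway, through C1r and C1s) or by sugars on microbes (lectin pathway, through mannose-binding lectins and their proteases), converges on C3, and ends in a pore built from C5b, C6, C7, C8 and C9. Coagulation runs through serine proteases that activate each other up to thrombin, which cuts fibrinogen into fibrin, and serpins such as antithrombin and heparin cofactor II restrain it. The vitamin K dependent factors need a carboxylation in the liver before they can bind membranes.

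The arrays came from male Sprague-Dawley rats that were 4 weeks old at purchase and ate one of 4 diets for 21 days, 5 rats per diet. The diets were casein with soybean oil (CS), casein with fish oil (CF), tofu with soybean oil (TS) and tofu with fish oil (TF), each with 200 g/kg of protein and 150 g/kg of fat, and the comparisons ask how the protein source and the oil affect hepatic gene expression. Fish oil replaced 50 g/kg of the soybean-derived fat in CF and TF, and the tofu diets still contained some casein, so every diet held casein and soybean-derived fat. The tofu diets also held less sucrose and less energy per kg than the casein diets, so the protein source was not their only difference. Within each group the rats that ate most and least had been left out of the array work, and every remaining rat was hybridised to its own array. CS-1 stands for rat number 1 of group CS, and so on. Expression is given as a log-scale z score, in which 0.2 corresponds to a 1.41-fold difference, and folds below use that scale.

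The tissue carried the signals of liver. All 9 measured hepatocyte markers were present, from Tat (mean z 1.34) to Alb (mean z 3.57), while the 5 measured lymphocyte markers had mean z below 0. Median z per array lay between -0.102 and 0.022. In 4 rats, 1 in each group (TF-3, TS-1, CF-1 and CS-1), a control probe set for the 5' end of beta-actin was at 1.30 to 1.42 against 1.86 to 2.13 in the other 16, and TF-5, TF-4 and TS-7 had the lowest median correlations with the other arrays (0.938 to 0.944 against 0.951 to 0.958). In whole liver, fewer cells of a type and less RNA per cell cannot be told apart.

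The signals of the members were among the brightest on the arrays. Except for Cfd (factor D, made largely in fat tissue, mean z 0.81), each member lay at or above the 89.6th percentile of mean z, and 27 of 34 had a mean z above 2. A probe set's brightness depends on its probes as well as on its transcript, so the members were not ranked by level.

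Heparin cofactor II rose with tofu, and no other member passed the test for the protein source. The difference in z between the tofu groups (TS and TF) and the casein groups (CS and CF) was above 0 for 31 of 34 members, but it was small, with a median of 0.067 against 0.012 over all 31039 probe sets tested. One member (Serpind1) rose at an adjusted p under 0.05 and none fell, where 0.3% of all probe sets rose and 0.258% fell (limma, Benjamini-Hochberg). At an unadjusted p under 0.05, 16 of 34 members were higher with tofu and 1 (C6) was lower, where 6.65% of all probe sets were higher and 3.53% lower.

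**Figure D1:**
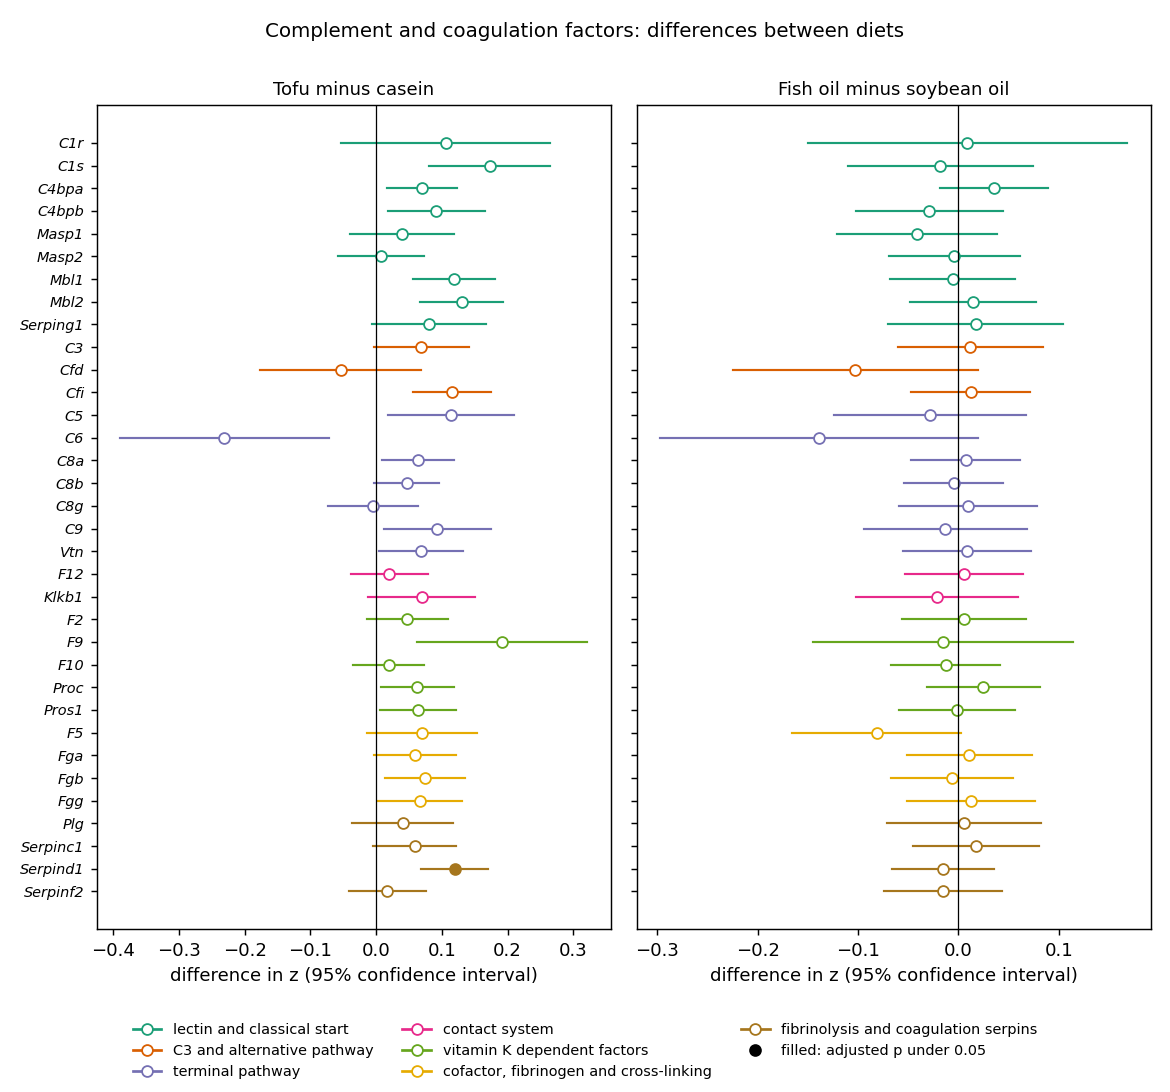
Difference in z for each of the 34 measured members, by cascade, between tofu and casein (left) and between fish oil and soybean oil (right). Points are differences between means of 10 rats each, bars are 95% confidence intervals from limma, and a filled point has an adjusted p under 0.05. On the left 31 points lie above 0 and only Serpind1 is filled; on the right 16 lie above 0 and none is filled.

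Serpind1 encodes heparin cofactor II, a serpin that inhibits thrombin when bound to dermatan sulfate or heparin. Its z was 2.49, 2.49, 2.53, 2.55 and 2.47 in the 5 CS rats and 2.54, 2.58, 2.49, 2.51 and 2.46 in the CF rats. With tofu it was 2.65, 2.61, 2.66, 2.61 and 2.72 in TS and 2.64, 2.65, 2.55, 2.64 and 2.59 in TF. Every tofu rat was above the casein mean and 9 of 10 were above the highest casein rat, so the groups overlapped by 1 tofu rat (TF-5). The difference was 0.12 (SE 0.0244, 1.23-fold, limma adjusted p = 0.0282). The call was lost when any 1 of 9 rats was left out (CS-2, CS-7, CF-5, CF-6, CF-7, TS-1, TS-7, TF-3 or TF-6), with an adjusted p of up to 0.0629, and after quantile normalization, where the difference was 0.0833 with an adjusted p of 0.162. It was also lost without the 4 rats of low 5' actin signal (difference 0.118, adjusted p = 0.142) and without the 3 least correlated arrays (0.117, adjusted p = 0.0758). With rat number as a block in the limma model the adjusted p was 0.199.

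After Serpind1, the members with the lowest adjusted p were Mbl2, Cfi, Mbl1 and C1s. Both mannose-binding lectins, which recognise microbial sugars, were higher in tofu rats without passing the test on the probe sets used. Mbl2 was 2.48, 2.37, 2.35, 2.35 and 2.32 in CS and 2.33, 2.44, 2.41, 2.48 and 2.39 in CF. It was 2.54, 2.56, 2.58, 2.48 and 2.48 in TS and 2.56, 2.40, 2.51, 2.58 and 2.54 in TF. Every tofu rat exceeded the casein mean and 7 of 10 the highest casein rat, with a difference of 0.13 (SE 0.0302, limma adjusted p = 0.0611). A second, dimmer probe set of Mbl2 gave 0.123 with an adjusted p of 0.0342. Mbl1 ran from 1.85 to 2.03 in CS, 1.91 to 2.02 in CF, 2.02 to 2.17 in TS and 2.03 to 2.11 in TF, and 9 of 10 tofu rats were above the highest casein rat (difference 0.118, SE 0.0297, limma adjusted p = 0.0889).

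C1s and Cfi also had higher means with tofu and did not pass the test. C1s is the protease of the C1 complex that cleaves C4 and C2. It was 2.30, 2.09, 2.23, 2.42 and 2.20 in CS, 2.31, 2.17, 2.22, 2.27 and 2.21 in CF, 2.53, 2.39, 2.39, 2.46 and 2.37 in TS, and 2.59, 2.29, 2.32, 2.47 and 2.34 in TF. The groups overlapped, with 4 of 10 tofu rats above the highest casein rat (CS-6), and the difference was 0.173 (SE 0.0439, 1.35-fold, limma adjusted p = 0.0914). Cfi encodes factor I, which cuts C3b and C4b and so stops the cascade. It ranged from 2.48 to 2.66 in CS, 2.58 to 2.70 in CF, 2.68 to 2.76 in TS and 2.64 to 2.79 in TF (difference 0.115, SE 0.0282, limma adjusted p = 0.0813), and 6 of 10 tofu rats were above the highest casein rat.

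**Figure D2:**
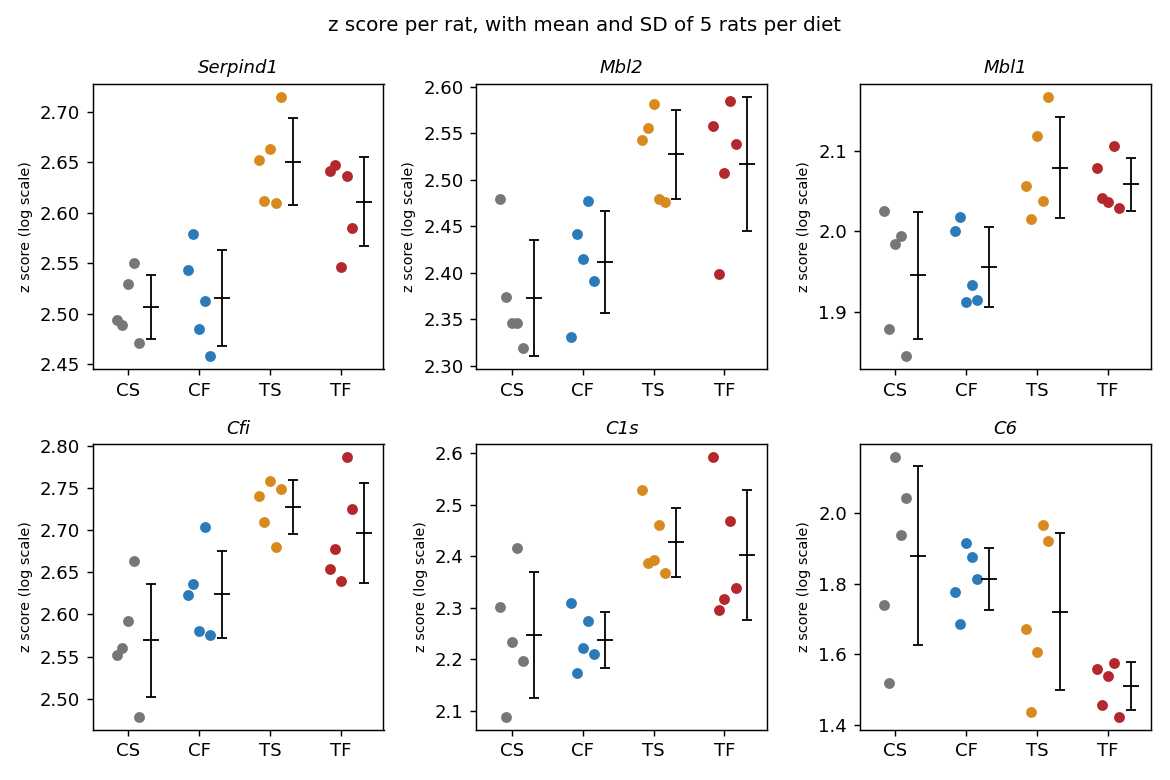
The z score of 6 members in every rat, by diet (vertical axes are log-scale z scores and do not start at 0). Points are rats, and the dash and bar beside them are the mean and SD of 5 rats. Serpind1, Mbl2, Mbl1, Cfi and C1s lie higher in TS and TF than in CS and CF, and C6 is lowest in TF (1.42 to 1.58).

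C6, a subunit of the terminal pore, was the 1 member that was lower in tofu rats at an unadjusted p under 0.05. It was 1.74, 1.52, 2.16, 1.94 and 2.04 in CS and 1.78, 1.69, 1.92, 1.88 and 1.81 in CF, against 1.67, 1.44, 1.61, 1.97 and 1.92 in TS and 1.56, 1.46, 1.54, 1.58 and 1.42 in TF. All 5 TF rats were below all 5 CF rats, but 1 CS rat (CS-2) lay inside their range and TS reached above CF. The protein difference was -0.231 (SE 0.0757, 1.49-fold lower, limma adjusted p = 0.244), and TF differed from CS by -0.37 (SE 0.107, 1.89-fold lower, limma adjusted p = 0.178). Neither passed the test.

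The remaining named members did not pass the test either. F9, the factor IX protease whose loss causes haemophilia B, had the largest positive difference (0.192, SE 0.0618, limma adjusted p = 0.234), and its ranges overlapped widely (1.95 to 2.36 in CS, 2.05 to 2.41 in CF, 2.31 to 2.49 in TS and 2.18 to 2.52 in TF). C4bpa, the alpha chain of the C4b-binding protein that restrains the classical pathway, ran from 2.61 to 2.77 in CS, 2.71 to 2.77 in CF, 2.74 to 2.80 in TS and 2.75 to 2.89 in TF (difference 0.0701). Of the others, Masp1, a protease bound to mannose-binding lectins, differed by 0.0394 and Serpinc1 (antithrombin) by 0.0585. Klkb1 (plasma prekallikrein of the contact system) differed by 0.0691, Proc (protein C, an anticoagulant) by 0.0628 and Fgb (fibrinogen beta chain) by 0.0742. C5 (the source of the pore-starting C5b) differed by 0.114 and C8a (a chain of the C8 pore subunit) by 0.0638. F9, C4bpa, Proc, Fgb, C5 and C8a were among the 16 members higher at an unadjusted limma p under 0.05. Masp1, Serpinc1 and Klkb1 were not, and 6.65% of all probe sets were.

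By cascade, the median differences were close to each other. The 9 measured genes of the lectin and classical start were all above 0, with a median of 0.0918. The medians were 0.0685 for the 3 genes of the C3 and alternative pathway, 0.0638 for the 7 of the terminal pathway, 0.0447 for the 2 of the contact system, 0.0628 for the 5 vitamin K dependent factors, 0.0679 for the 4 cofactor and fibrinogen genes and 0.0495 for the 4 serpins and fibrinolysis genes. All 4 fibrinogen and cofactor genes lay between 0.0591 and 0.0742 on the brightest probe sets as deposited. Dimmer probe sets gave 0.0269 for Fga and -0.0135 and 0.2345 for Fgb. After quantile normalization the difference of Fgb was 0.01135. At an unadjusted p under 0.05, which 6.65% of all probe sets reached in the higher direction, the members higher with tofu were 5 of 9 in the lectin and classical start, 1 of 3 in the C3 and alternative pathway, 4 of 7 in the terminal pathway (and 1 lower), 0 of 2 in the contact system, 3 of 5 vitamin K dependent factors, 2 of 4 cofactor and fibrinogen genes and 1 of 4 serpins and fibrinolysis genes. Differences between the cascades were not tested.

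Averaged over the 34 members and centred on all 20 rats, z ranged from -0.0803 to 0.0153 in CS, -0.0802 to 0.00578 in CF, 0.0132 to 0.0831 in TS and -0.0452 to 0.0804 in TF. The TS rats thus lay almost entirely above the casein rats (only the highest CS rat, CS-5, exceeded the lowest TS rat), whereas TF overlapped them.

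From a mean z of 1 upwards, the median shift rose with brightness among other probe sets but not among the members. Among other probe sets the median tofu minus casein difference was 0.00612 at mean z of 0 to 1 and 0.0155 at 1 to 2. It was 0.0241 at 2 to 2.5, 0.0433 at 2.5 to 3 and 0.0638 above 3. The members' medians were 0.0661 at 1 to 2 (6 members) and 0.106 at 2 to 2.5 (9 members). They were 0.0628 at 2.5 to 3 (11 members) and 0.0661 above 3 (7 members). The members thus exceeded other probe sets most at 2 to 2.5 and were close to them above 3. Of the 717 others with mean z above 2, 74.3% were above 0 (median 0.0355) and 22.0% were higher with tofu at an unadjusted p under 0.05. Of the 27 members of this brightness 26 were above 0 (median 0.0678) and 14 were higher at that threshold. The centred mean z of all 34 members was highest in TS (0.0443, against 0.0167 in TF). For the other probe sets with mean z above 2 it was highest in TF (0.0228, against 0.0088 in TS). After quantile normalization, which forces all arrays onto one distribution, the members' median was 0.0125, 24 of 34 were above 0 and none was called. At an unadjusted p under 0.05, 7 members were then higher and 2 lower, where 5.12% and 5.27% of all probe sets were. The other bright probe sets had a median of -0.00109, with 12.8% higher and 10.3% lower at that threshold. Scaling each array by its median and interquartile range instead gave a median of 0.0856 with 32 of 34 above 0. The part of array scaling in the members' shift was not tested further.

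**Figure D3:**
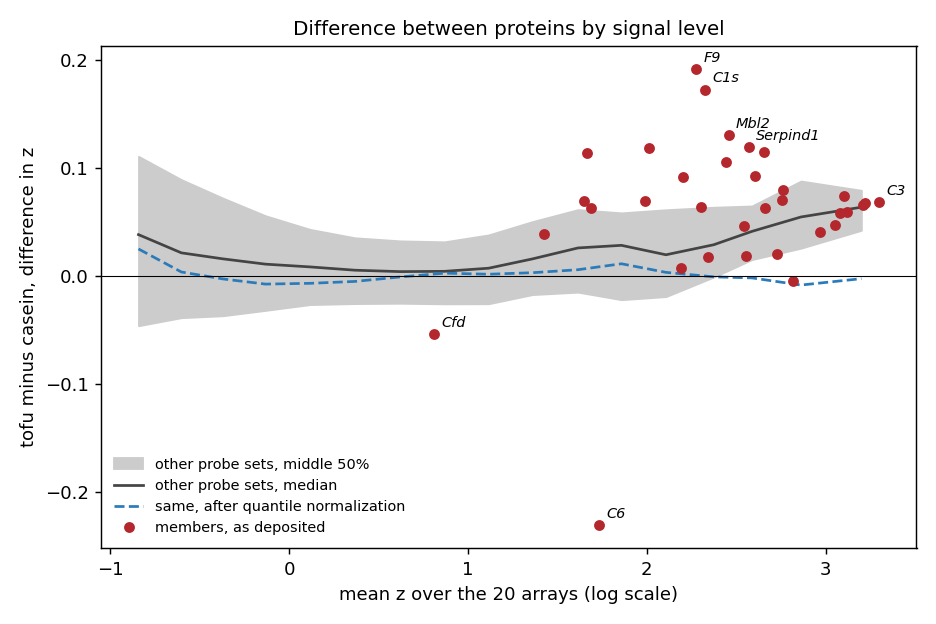
Tofu minus casein difference in z against mean z over the 20 arrays. The grey band and line are the middle 50% and median of other probe sets in steps of mean z, the dashed line is that median after quantile normalization, and red points are the 34 members as deposited. The grey line falls from 0.038 in the dimmest step to 0.0042 near a mean z of 0.62. It reaches 0.064 above a mean z of 3, where 7 members lie. Serpind1, Mbl2, C1s and F9 lie above the band.

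**Figure D4:**
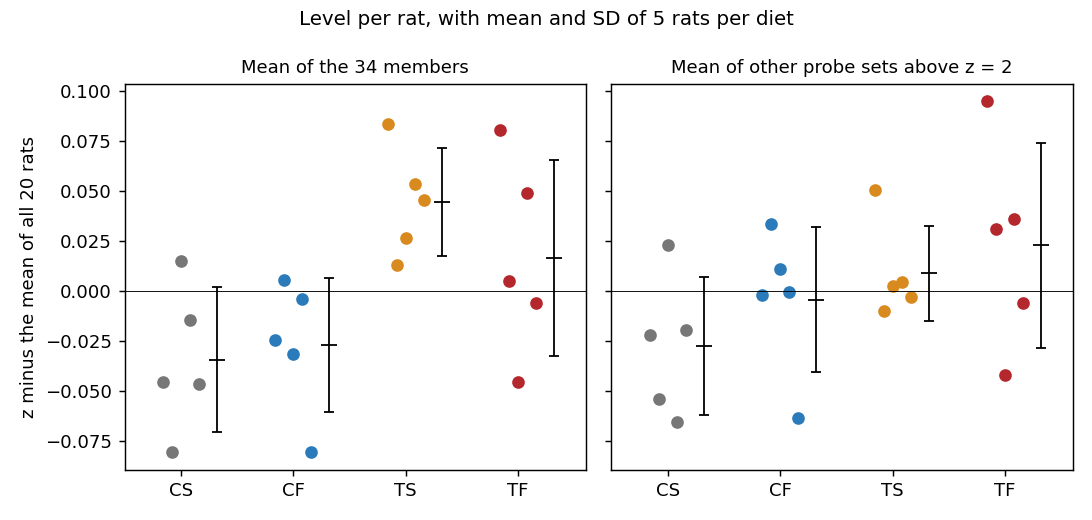
Mean z over the 34 members (left) and over the other 717 probe sets with mean z above 2 (right), centred on the mean of all 20 rats, per rat and diet. Points are rats, and the dash and bar are the mean and SD of 5 rats per diet. The member means are highest in TS (0.0132 to 0.0831), and the bright probe sets overlap between all diets.

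Markers of other cell types differed in both directions, and 1 of them passed the test. All 9 measured Kupffer cell markers were above 0 in the tofu minus casein comparison (median 0.0463), as were 7 of 8 endothelial markers (median 0.0623), 6 of 10 stellate cell markers and 7 of 9 hepatocyte markers (median 0.0464). Of the remaining lists, 1 of 5 lymphocyte markers was above 0 (median -0.00491), 2 of 4 cholangiocyte markers (median 0.00249), 3 of 4 platelet markers (median 0.0419), 1 of 2 red cell markers (median 0.0373) and both neutrophil markers, S100a8 and S100a9, with a median of 0.177 and mean z of -0.269 and 0.0998. Rgs5, a pericyte and stellate cell gene with a low signal (mean z 0.0134), was the marker that rose (0.277, limma adjusted p = 0.0151). Centred mean z of the endothelial markers ran from -0.0847 to 0.0301 in CS, -0.0927 to 0.0205 in CF, -0.0248 to 0.136 in TS and -0.0681 to 0.0856 in TF. The part of cell composition in the members' shift was not tested.

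Fish oil changed none of the members at the thresholds used. The difference between fish oil (CF and TF) and soybean oil (CS and TS) was above 0 for 16 of 34 members, with a median of -0.00248, and no member passed limma's adjusted p of 0.05 or an unadjusted p under 0.05 (0.193% and 5.55% of all probe sets did). The 95% confidence interval of the difference lay within 0.2 of 0, that is below 1.41-fold, for 32 of 34 members. The exceptions were Cfd, a difference of -0.103 (95% interval -0.225 to 0.0198), and C6, a difference of -0.139 (95% interval -0.298 to 0.0197).

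F5, coagulation factor V and the cofactor of factor Xa, had the lowest p for the oil. In soybean oil rats it was 1.65, 1.49, 1.71, 1.80 and 1.58 (CS) and 1.72, 1.58, 1.80, 1.74 and 1.86 (TS). With fish oil it was 1.62, 1.6, 1.65, 1.57 and 1.5 (CF) and 1.65, 1.69, 1.63, 1.56 and 1.63 (TF). All 10 fish oil rats were below the soybean oil mean, with overlapping ranges, and the difference was -0.0815 (SE 0.04, 1.15-fold lower, limma adjusted p = 0.907). The direction of the members as a whole depended on scaling, with 4 of 34 above 0 after quantile normalization and 28 after scaling to the same median and interquartile range. The median over all probe sets was -0.00113 as deposited.

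No interaction between protein and oil was found, with 0 of 34 members called and none at an unadjusted p under 0.05 (0% and 3.43% of all probe sets). The interaction was below 0 for 29 of 34 members, with a median of -0.0368 against -0.0108 over the other probe sets, of which 45.0% were above 0. At mean z of 1 to 2 the median was -0.0537 over 6 members and -0.0059 over other probe sets. At 2 to 2.5 it was -0.0187 over 9 members and 0.00184 over others. At 2.5 to 3 it was -0.0448 over 11 members and -0.0118 over others. Above 3 it was -0.0357 over 7 members and -0.0416 over 51 others. The lowest p values of the interaction belonged to Cfi (-0.0854, 95% interval -0.204 to 0.0328), C8a (-0.0689, 95% interval -0.178 to 0.0399) and C5 (-0.104, 95% interval -0.296 to 0.088). For 23 of 34 members the interval lay within 0.2 of 0, and for the other 11 an interaction of that size was not bounded with 5 arrays per diet.

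Comparing single diets gave no call among the members. TS differed from CS at an unadjusted p under 0.05 for 12 members (7.15% of all probe sets), TF from CS for 8 (9.66%) and TF from CF for 5 (6.9%), whereas CF against CS (3.52%) and TF against TS (5.83%) gave none. At an adjusted p under 0.05 these percentages of all probe sets were 0.0709 for TS against CS, 0.457 for TF against CS, 0.0677 for TF against CF, 0.0451 for CF against CS and 0.0677 for TF against TS. The tests share groups, so their counts are not independent. The medians over the 34 members were 0.0852 for TS against CS and 0.0705 for TF against CS, compared with 0.0228 for CF against CS and -0.0156 for TF against TS. Serpind1 had the lowest adjusted p for TS against CS (a difference of 0.144, adjusted p = 0.199).

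Fibrinogen, the precursor of the fibrin clot, is a dimer of 3 different chains. The 3 chain genes moved together from rat to rat, and they also moved with other members, as given below. After subtracting each diet's mean, the z of Fga and Fgg correlated at r = 0.959 over 20 rats, that of Fga and Fgb at 0.851 and that of Fgb and Fgg at 0.86 (permutation within diets, 8 pairs tested, adjusted p = 8e-05, 0.00034 and 0.00034). Spearman's rho was 0.923, 0.785 and 0.773 (adjusted p = 0.00016, 0.0016 and 0.0016). Without the 2 rats farthest from the median (TF-3 and TF-5) r was 0.936, 0.753 and 0.756.

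Rat TF-3 had the highest values of all 3 chains (Fga 3.25, Fgb 3.22, Fgg 3.34) and TF-5 the lowest of its group (3.04, 3.02 and 3.12). TF-3 is one of the rats with the low 5' actin signal and TF-5 one of the least correlated arrays, but the relation held without them as given above. In the C8 complex, the beta and gamma chains correlated at r = 0.797 (rho 0.774, permutation within diets, adjusted p = 0.00034 and 0.00128, r = 0.779 without CS-5 and TS-7), but not C8a with C8b (r = 0.195, adjusted p = 0.581) nor C8a with C8g (r = 0.0335, adjusted p = 0.902). Neither did C4bpa with C4bpb (r = 0.139, adjusted p = 0.731) nor C1r with C1s (r = 0.221, adjusted p = 0.581).

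These correlations have a background. The median r over 561 pairs of members was 0.253, the members' median r with 560 other genes of mean z above 2 was 0.24 and with all other genes it was -0.012. By gene, the median r with the other members ran from 0.0289 (C5) to 0.525 (Fgb). It was 0.435 for Fga and 0.378 for Fgg, and 0.445 for Serpinc1, 0.413 for F10 and 0.402 for Vtn, which are not fibrinogen chains. Pairs outside the chosen complexes were not tested one by one. The co-movement is therefore not shown to be particular to the fibrinogen chains. After quantile normalization the fibrinogen pairs gave r of 0.657 (Fga and Fgb), 0.691 (Fga and Fgg) and 0.789 (Fgb and Fgg), and C8b with C8g 0.671. Averaging each gene's probe sets, which adds dimmer probe sets of Fga and Fgb, gave r of 0.0318 (Fga and Fgb), 0.617 (Fga and Fgg) and -0.266 (Fgb and Fgg), so the relation rests on the brightest probe sets.

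**Figure D5:**
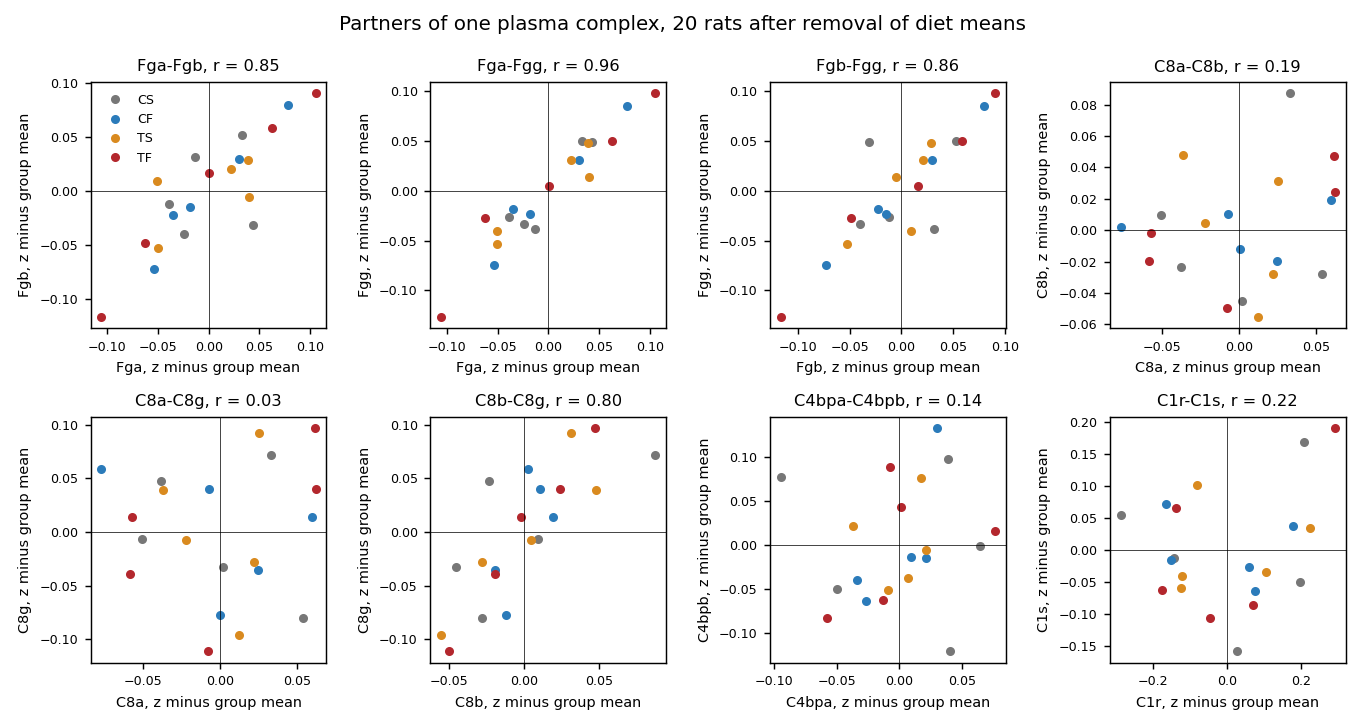
z of 1 gene against z of its partner in a complex, each minus its diet mean, for 8 pairs and 20 rats, with the color giving the diet. The 3 fibrinogen pairs (r = 0.959, 0.851 and 0.86) and C8b with C8g (r = 0.797) lie along a line, and the remaining 4 pairs (r of 0.0335 to 0.221) scatter.

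The 3 fibrinogen genes also lie next to each other, with no protein coding gene between Fgg and Fga or between Fga and Fgb on chromosome 2. C1r and C1s on chromosome 4 and C8b and C8a on chromosome 5 are neighbours in the same way, and C4bpa and C4bpb on chromosome 13 are separated by 1. The upstream sequences of the fibrinogen genes are shown because the chains moved together, although this was not shown to be particular to them. The 250 bases before each start are from RefSeq (build GRCr8), written 5' to 3' on the strand of the gene, with capitals for matches on either strand to GTTAAT (HNF1 half-site), TTGCNNAA (C/EBP core) or CTGGGAA (IL-6 response element).
Fga, chr2:170671919-170672168, plus strand: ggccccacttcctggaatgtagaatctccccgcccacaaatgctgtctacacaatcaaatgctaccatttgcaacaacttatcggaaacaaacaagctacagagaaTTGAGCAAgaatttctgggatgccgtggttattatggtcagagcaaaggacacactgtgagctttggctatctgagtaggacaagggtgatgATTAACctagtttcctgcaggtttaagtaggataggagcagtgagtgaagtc
Fgb, chr2:170700876-170701125, minus strand: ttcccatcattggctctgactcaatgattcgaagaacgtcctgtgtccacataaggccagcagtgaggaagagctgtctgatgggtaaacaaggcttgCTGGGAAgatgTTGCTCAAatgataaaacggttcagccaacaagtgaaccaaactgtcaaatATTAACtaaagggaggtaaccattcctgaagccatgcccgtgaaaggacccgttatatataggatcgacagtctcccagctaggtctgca
Fgg, chr2:170652833-170653082, plus strand: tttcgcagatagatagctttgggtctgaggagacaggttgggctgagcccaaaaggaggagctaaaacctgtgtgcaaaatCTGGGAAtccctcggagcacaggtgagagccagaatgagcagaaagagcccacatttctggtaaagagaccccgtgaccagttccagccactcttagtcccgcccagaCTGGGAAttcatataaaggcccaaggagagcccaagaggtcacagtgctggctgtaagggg

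In these letters Fgb held all 3 motifs, Fga the HNF1 and C/EBP motifs and Fgg the IL-6 response element in 2 copies, and none of the matches overlapped. The Fgg copies lay at bases 169 to 163 and 61 to 55 before the start. Promoters of 28 of 34 members were matched. GTTAAT occurred in 9 of 28 (32.1%, against 6.46% of 27457 rat promoters), TTGCNNAA in 11 (39.3% against 9.2%) and CTGGGAA in 9 (32.1% against 9.33%). Among the other 4 motifs searched, TGTTTAC (FOXA core) occurred in 14.3% against 3.25%, TATTGA (HNF6 core) in 21.4% against 6.66%, CAAAGT (HNF4 half-site) in 7.14% against 12.8% and GGGNNNTCC (NF-kappaB core) in 17.9% against 14.8%. A match is a description of the letters and not a binding site, and the genes of these factors had no call among 19 measured of 21 listed liver transcription factors and signalling genes in the protein or oil comparison.

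Other genes of the cascades gave no call. Of 53 further listed genes of complement, coagulation and fibrinolysis, 41 were measured and none passed the test in the protein or oil comparison, with a median protein difference of 0.0231 and 29 of 41 above 0. At an unadjusted p under 0.05, 6 were higher and 2 lower with tofu, where 6.65% and 3.53% of all probe sets were. With fish oil 1 was higher and 3 were lower, where 2.97% and 2.58% of all probe sets were.

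The vitamin K cycle recycles the vitamin for carboxylation of the clotting factors. Its list also holds carboxylated factors themselves, among them the 5 measured members F2, F9, F10, Proc and Pros1. Of 14 listed genes 11 were measured, and 2 were called in at least 1 comparison. Vkorc1, the vitamin K epoxide reductase inhibited by warfarin, was 2.55, 2.60, 2.62, 2.49 and 2.61 in CS, 2.5, 2.55, 2.54, 2.44 and 2.39 in CF, 2.43, 2.41, 2.44, 2.48 and 2.44 in TS, and 2.45, 2.39, 2.31, 2.37 and 2.32 in TF. All 5 TF rats were below all 5 CS rats, and TF differed from CS by -0.207 (SE 0.0398, 1.43-fold lower, limma adjusted p = 0.0213, where 0.171% of all probe sets fell). The protein difference was -0.125 (adjusted p = 0.0509). The call was lost when CS-2, CS-5, CS-7, TF-5, TF-6 or TF-7 was left out (adjusted p of up to 0.0692), without the 4 rats of low 5' actin signal (-0.233, adjusted p = 0.055) and without the 3 least correlated arrays (-0.194, adjusted p = 0.135). The adjusted p over 11 other settings ran from 0.000268 to 0.144.

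Nqo1, a quinone reductase that can reduce vitamin K, was lowest in CS and rose with tofu on the soybean oil background. Its z was 0.316 to 0.825 in CS, 1.09 to 1.32 in CF, 1.30 to 1.66 in TS and 1.13 to 1.46 in TF, so CS lay below the 3 other groups. The protein difference was 0.401 (SE 0.0666, 1.99-fold, limma adjusted p = 0.00632), and TS differed from CS by 0.767 (3.73-fold, adjusted p = 0.00115, where 0.0419% of all probe sets rose). With rat number as a block the limma adjusted p of the protein difference was 0.0991. On the fish oil background TF differed from CF by 0.0347 (adjusted p = 0.974). CF differed from CS by 0.516 (2.43-fold, adjusted p = 0.0573), and the interaction was -0.732 (SE 0.133, limma unadjusted p = 2.84e-05 and adjusted p = 0.484). Ggcx, the carboxylase itself, differed by -0.0382 between tofu and casein (adjusted p = 0.735), and its groups overlapped.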

How the data were processed

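Liver RNA of 20 rats, 5 per diet, was measured on Affymetrix Rat Genome GeneChips, 1 per rat. The deposited values are z scores, for which the authors used the SuperNORM service, a fit of a lognormal distribution to every array by itself. The software version, background treatment and summary of Perfect Match cells are not given in the sources used here. Precision is limited by having 5 arrays per diet. No measure of background was used. After removal of 57 control probe sets, 31039 probe sets with at least 3 values per group were tested.

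Symbols came from the array annotation, updated by gene identifier. A single symbol was available for 20825 probe sets, several for 436 and none for 9778. A model of the 4 group means was fitted with limma 3.58.1 in R 4.3.3, with Benjamini-Hochberg adjustment over all probe sets and a two-sided threshold of 0.05. Each limma p-value sets a difference against the spread between rats within diets, moderated across probe sets, and treats the rats as independent. Correlations used residuals from the diet means and 100000 permutations. The workflow was tested on simulated data.

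The members and gene lists were chosen with earlier results of these data known, and the motifs after diet differences had been seen. Members given in detail are those called, those with the largest protein or oil difference in each cascade, and those with the lowest p (5 per main effect, 3 for the interaction). Alternatives were quantile normalization, scaling by median and interquartile range, probe sets with mean z above 0 alone, a block for rat number, no moderation, a variance trend, array weights, averaging of each gene's probe sets, thresholds of 0.1 and 0.01, fits of 2 groups and leaving out each rat. Fits without the 4 rats of low 5' actin signal or the 3 least correlated arrays were chosen after seeing the data.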

Additional observations from a re-analysis of the deposited data

How the results depend on the processing

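As deposited, 1 member passed the test for the protein source. The number was 0 after quantile normalization and at a threshold of 0.01, 2 with averaging of each gene's probe sets, 3 without variance moderation and with array weights, and 5 with scaling by median and interquartile range, with bright probe sets alone, with a variance trend with robust estimation and a threshold of 0.1. Leaving out each rat in turn gave 0 to 3. In the fits chosen after seeing the data it was 0 without the 4 rats of low 5' actin signal, where the members' median difference was 0.0425, and 1 (Mbl2 in place of Serpind1) without the 3 least correlated arrays. For the oil and the interaction the number was 0 under each alternative run. The pairwise comparisons gave 0 as deposited, 2 (Cfi and Serpind1) with median and interquartile range scaling and 1 (Mbl2) with averaging of each gene's probe sets. The cause of these changes was not tested. The share of all probe sets passing under each alternative is not given here, so the changes are not read as a result about the members. Rat numbers are shared between diets. Residuals of same-numbered rats correlated at -0.135 to 0.363 (median 0.0934), against a median of -0.0374 for differently numbered pairs. Of 22 same-numbered pairs 11 (50%) were above 0.1, against 28 of 128 (21.9%) differently numbered pairs. Of 19 rats, 8 correlated best with a rat of their own number. What the numbers stand for is not given, and the main fits did not use them to pair the rats. Whether same-numbered rats share an effect was not tested. Of the 4 rats of low 5' actin signal, 3 have the number 1. With the rat number as a block 1 member passed for the protein source (C1s, adjusted p = 0.0328), 0 for the oil and the interaction, and 1 (C6) in the pairwise comparisons, while Serpind1 had a protein difference of 0.113 (adjusted p = 0.199) and Nqo1 one of 0.398 (adjusted p = 0.0991). Signs turned for the oil differences of Klkb1 (0.000519) and Serpind1 (0.0129) with median and interquartile range scaling, for r of Fgb with Fgg with averaging of probe sets (-0.266) and for r of C8a with C8g after quantile normalization (-0.348). For Serpind1 the adjusted p of the protein difference ran from 0.00353 to 0.199 over 10 other settings. With 5 arrays per diet the median standard error of a member's protein difference was 0.0305, and no measure of signal over background was used.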
